A study of Mus musculus with 16 samples.

Results

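Genes that mark the plasmacytoid dendritic cell were followed across CD11b+ cells of mouse spleen and bone marrow. The set holds 10 named genes, Siglech, Bst2, Ccr9, Tcf4, Spib, Ly6d, Klk1, Pacsin1, Runx2 and Cox6a2, and was found as every gene probe whose symbol is one of these names. It takes up 14 of 39429 probes and 10 of 20659 gene symbols on the array, with 4 genes read by 2 probes and 6 genes by 1 probe. All 10 genes were well above background on all 16 arrays by the probe read as the gene, which is the brightest probe with a usable spot on every array.

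The samples came from mice labelled male, of 4 genotypes: wild type (WT), STAT4-/- and STAT6-/- mice, labelled as lacking transcription factors of cytokine signalling, and HDC-/- mice, labelled as lacking the histamine-forming enzyme. Each genotype was measured in both tissues on a control diet and after 3 months on a high-fat diet (HFD), which the labels describe as a model of atherosclerosis. Every combination has 1 array, and each array holds RNA of CD11b+ cells pooled from 5 mice, so a pool and its array vary together and p-values measure the spread between pools of different groups. The strain, the age and the extent of each deletion are not given in the sources used here.

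Plasmacytoid dendritic cells are rare immune cells of bone marrow, blood and lymphoid organs. They sense viral nucleic acids in endosomes through Toll-like receptors and are known for releasing large amounts of type I interferon. Their identity depends on the E protein encoded by Tcf4, which binds E-box sequences and opposes inhibitors of the Id family, and several of their genes are shared with B cells. In the mouse they carry little CD11b, the integrin encoded by Itgam that was used to isolate the cells here. In RNA from a cell fraction, fewer cells of a type and less RNA per cell cannot be told apart.

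All values below are log2 signal relative to the 75th percentile of the same array, called the log2 level, and a change is a difference of log2 levels. The median spot signal of the arrays ran from 74.0 to 183.9, 59.9% to 85.3% of probes were well above background, and no spot was saturated. Itgam was well above background on every array, from 3.10 to 6.01. Hdc read 0.94 to 1.87 on the 4 HDC-/- arrays and 4.02 to 5.75 on 11 others with a usable spot. Stat6 read 2.51 to 2.99 on the STAT6-/- arrays, inside the range of the other 12 (2.30 to 4.097). Stat4 went against its label: it read 0.52 and 0.37 on the control-diet arrays labelled STAT4-/- and 3.46 and 2.71 on the HFD arrays labelled STAT4-/-, where the other 12 arrays ran from -0.93 to 1.30. A probe outside the deleted part of a gene would not check a label, and where these probes lie was not tested. These arrays are therefore called the arrays labelled STAT4-/- throughout. The mean level of Y-linked genes was -8.42 to -5.61 on 4 arrays labelled male, the control-diet arrays labelled STAT4-/- and HDC-/- in both tissues, and -0.65 to 0.33 on the other 12.

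A pair of arrays stood nearer the other tissue over all features. The spleen HFD array labelled STAT4-/- had a mean correlation of 0.947 with the other spleen arrays and 0.970 with the marrow arrays, and the HDC-/- marrow control-diet array one of 0.947 with marrow and 0.954 with spleen. Itgam was 6.01 on the first, above the 3.10 to 4.93 of the other spleen arrays, and 4.70 on the second, below the 5.35 to 6.002 of the other marrow arrays. The tissue results of the 10 genes and of the gene lists are given with and without these 2 arrays. They were picked for standing nearer the other tissue, so leaving them out favours a tissue difference by construction. Fits without them show how far the results rest on them and are no separate support.

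Do CD11b+ cells of spleen and marrow differ in these genes? Under limma, with 8 genotype-by-tissue means and a separate diet effect for spleen and for marrow, 6 of the 10 genes were higher in spleen and 0 were lower at a Benjamini-Hochberg adjusted p under 0.05, against 15.1% of all 28485 features called higher and 16.7% called lower. The 6 genes were Bst2, Ccr9, Tcf4, Spib, Ly6d and Klk1. The median change over the 10 genes was 1.30, against -0.049 over all features. Siglech, Pacsin1, Runx2 and Cox6a2 did not pass. No gene separated the 8 spleen arrays from the 8 marrow arrays completely, which 1.65% of features did with spleen higher. Without the 2 arrays nearer the other tissue, 8 of 10 passed as higher (background 16.6%), and 5 of 10 no longer overlapped between tissues (background 9.02%). Arrays that share a scan time, 4 each and taken here as a slide, hold 1 tissue, so slide and tissue cannot be told apart, while both diets of a genotype share a slide.

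**Figure D1:**
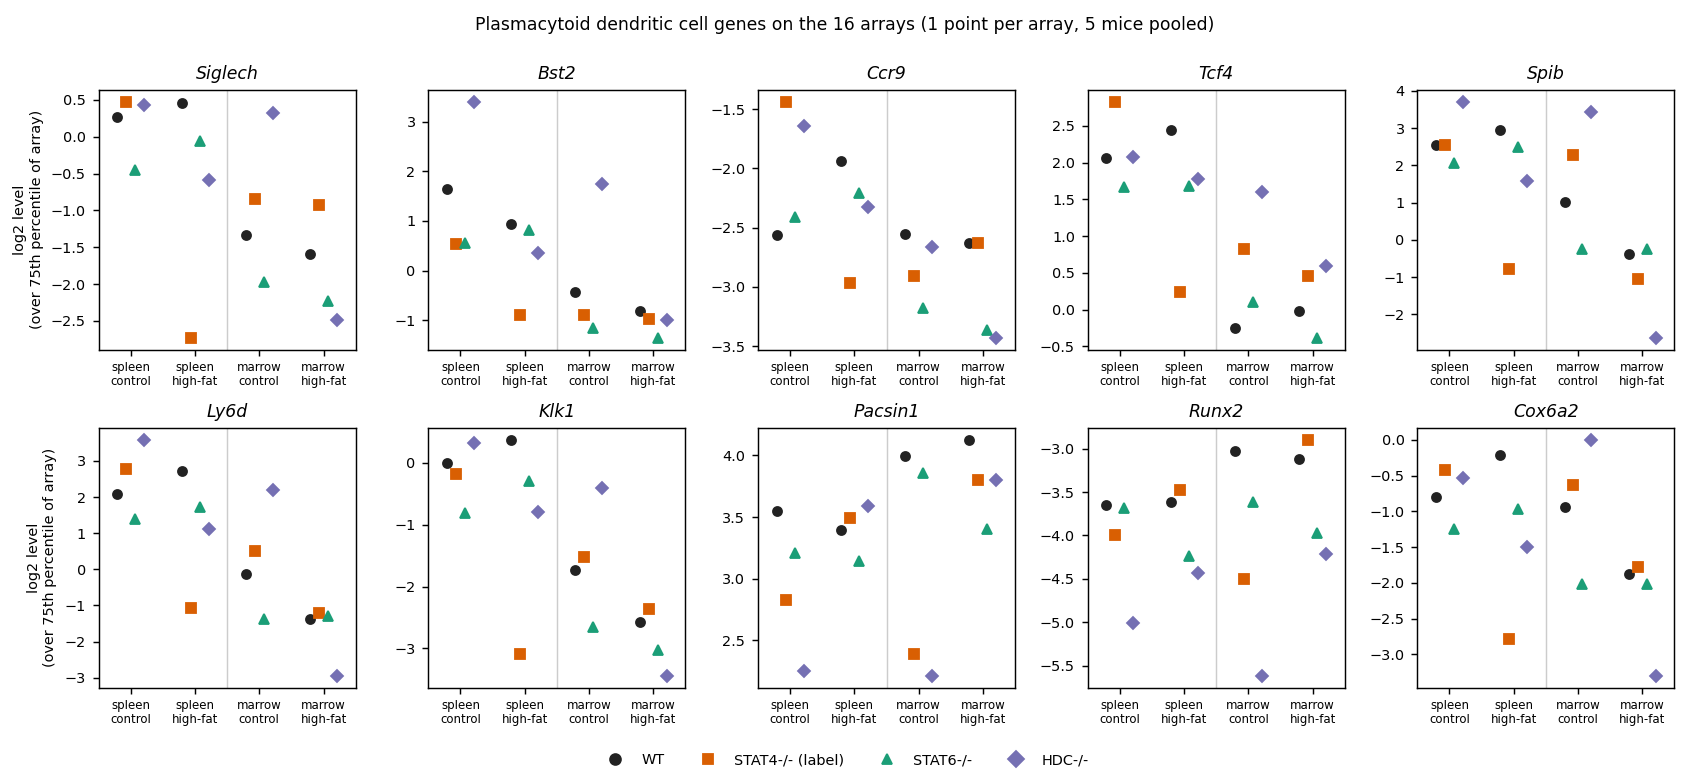
Log2 level (over the 75th percentile of the array) of the 10 genes on each of the 16 arrays, by tissue and diet, with 1 point per array and a symbol for each genotype. For most genes the spleen HFD array labelled STAT4-/- lies low among spleen arrays (8 of 10 genes at their spleen minimum) and the HDC-/- marrow control-diet array lies high among marrow arrays (7 of 10 genes at their marrow maximum).

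Among the surface proteins, Siglech encodes a sialic-acid-binding lectin that is the usual surface marker of mouse plasmacytoid dendritic cells. In control-diet spleen its log2 level was 0.27 in WT, 0.47 on the array labelled STAT4-/-, -0.45 in STAT6-/- and 0.43 in HDC-/-. In HFD spleen it was 0.45, -2.73, -0.054 and -0.59 in the same order. All spleen arrays but the HFD array labelled STAT4-/- lay at or above -0.59. In control-diet marrow Siglech was -1.34 in WT, -0.85 on the array labelled STAT4-/-, -1.97 in STAT6-/- and 0.32 in HDC-/-, and in HFD marrow -1.60, -0.93, -2.24 and -2.50. The HDC-/- control-diet marrow array thus sat among the spleen values. The change was 1.11 (SE 0.43, 95% interval 0.15 to 2.07), higher in spleen in 7 of 8 pairs of the same genotype and diet, with an adjusted p of 0.0741 by limma. Without the 2 arrays nearer the other tissue the change was 1.82 with an adjusted p of 0.00082 by limma, and the adjusted p ran from 0.00082 to 0.0926 over the 10 alternatives other than leaving out 1 array. Leaving out 1 array brought the adjusted p to 0.0133 without the spleen HFD array labelled STAT4-/-, 0.019 without the HDC-/- control-diet marrow array and 0.049 without the STAT6-/- control-diet spleen array, and the 16 such fits ran from 0.0133 to 0.18.

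The second Siglech probe, which had its spot flagged as an outlier on the spleen HFD array labelled STAT4-/-, did not follow this pattern. Over the 15 usable arrays it ran from 3.98 to 4.94 in spleen and from 3.30 to 5.31 in marrow. Its change was 0.047 (SE 0.17) with an adjusted p of 0.858 in a limma fit with every probe as its own feature. The 2 probes of Siglech therefore disagree on the tissue difference, and the flagged spot keeps the second from being read on the array where the first was lowest.

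The bases just upstream of the transcription start are shown for Siglech, Klk1, Spib and Ccr9. Klk1 had the highest correlation with Siglech (below), and Spib and Ccr9 were called higher in spleen. Each window is the 250 bases before the start given by RefSeq on GRCm38.p6, written 5' to 3' along the gene. Capitals mark matches on either strand to the E-box CANNTG, to which the Tcf4 protein's family binds, or to the RUNX core TGTGGT; the ETS core GAGGAA that Spi-B-like factors recognise was searched too. Siglech lies at chr7:55767934-55768183 (plus strand), Klk1 at chr7:44225110-44225359 (plus strand), Spib at chr7:44532072-44532321 (minus strand) and Ccr9 at chr9:123766961-123767210 (plus strand).
Siglech: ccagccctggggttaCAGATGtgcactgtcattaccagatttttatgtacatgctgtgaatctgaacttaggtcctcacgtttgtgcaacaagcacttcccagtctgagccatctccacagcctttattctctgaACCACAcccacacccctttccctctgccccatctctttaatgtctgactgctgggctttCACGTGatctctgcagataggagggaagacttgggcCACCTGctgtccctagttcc
Klk1: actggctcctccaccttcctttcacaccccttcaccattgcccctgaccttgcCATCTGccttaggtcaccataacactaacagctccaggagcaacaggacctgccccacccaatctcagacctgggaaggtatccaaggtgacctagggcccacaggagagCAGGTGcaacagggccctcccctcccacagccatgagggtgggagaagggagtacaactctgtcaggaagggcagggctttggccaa
Spib: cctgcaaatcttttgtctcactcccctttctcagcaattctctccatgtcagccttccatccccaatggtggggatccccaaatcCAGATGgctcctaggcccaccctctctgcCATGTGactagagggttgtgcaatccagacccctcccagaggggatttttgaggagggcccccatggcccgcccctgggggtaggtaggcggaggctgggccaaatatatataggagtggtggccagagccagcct
Ccr9: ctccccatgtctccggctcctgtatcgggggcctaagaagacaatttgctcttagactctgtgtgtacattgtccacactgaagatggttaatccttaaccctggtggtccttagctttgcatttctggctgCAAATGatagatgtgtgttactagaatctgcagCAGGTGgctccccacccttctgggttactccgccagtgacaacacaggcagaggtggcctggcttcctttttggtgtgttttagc

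Promoter windows were searched for 7 of the 10 genes (also Bst2, Pacsin1 and Runx2), and none for Tcf4, Ly6d or Cox6a2. The search was set to skip a chromosome for windows of the set, so the counts for the set cover these 7 genes alone. That chromosome was not skipped in the 32851 windows used for comparison. An E-box was found in 6 of these 7 windows, as in 66.2% of 32851 windows of the same length. The RUNX core was in 3 of 7 (Siglech, Pacsin1 and Runx2) against 14% of windows, and the ETS core in 0 of 7 against 23.3%. In the Runx2 window the E-box and the RUNX match overlap. Siglech had 3 E-boxes, at 235, 56 and 20 bases before the start.

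Bst2 encodes tetherin, a membrane protein that holds budding virus at the cell surface and is also induced by interferon. In control-diet spleen it read 1.64 in WT, 0.53 on the array labelled STAT4-/-, 0.56 in STAT6-/- and 3.40 in HDC-/-, and in HFD spleen 0.94, -0.90, 0.81 and 0.35. In marrow it read -0.43, -0.90, -1.15 and 1.75 on the control diet and -0.82, -0.98, -1.36 and -0.997 on HFD, so that 7 of 8 marrow arrays lay below 0. Bst2 was 2.88-fold higher in spleen (log2 change 1.53, SE 0.39, adjusted p 0.0159 by limma), higher in 8 of 8 pairs. It was 1.88 when the 2 arrays nearer the other tissue were left out. The 2 highest Bst2 values of all arrays were the HDC-/- control-diet arrays of the 2 tissues, on which the 7 interferon-stimulated genes measured (Ifit1, Ifit3, Isg15, Oasl2, Rsad2, Usp18 and Rtp4) also had their highest mean level, 5.10 in spleen and 4.29 in marrow against medians of 1.79 and 1.25. The part of interferon-stimulated genes in the Bst2 result was not tested.

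Ccr9 encodes the receptor for the gut and thymus chemokine Ccl25. Its spleen values were -2.56 in WT, -1.44 on the array labelled STAT4-/-, -2.41 in STAT6-/- and -1.64 in HDC-/- on the control diet and -1.94, -2.97, -2.21 and -2.33 on HFD. Its marrow values were -2.56, -2.90, -3.18 and -2.67 on the control diet and -2.63, -2.63, -3.36 and -3.43 on HFD. The spread was the narrowest of the surface receptors, and the tissues overlapped. Ccr9 was 1.66-fold higher in spleen (0.73, SE 0.25, adjusted p 0.0475 by limma, 6 of 8 pairs), and without the 2 arrays nearer the other tissue the change was 1.03. The call was lost when any of 12 of the 16 arrays was left out, and kept without the WT, STAT6-/- control-diet or labelled STAT4-/- HFD spleen array or the HDC-/- control-diet marrow array. Over those 16 fits the change ran from 0.54 to 0.93 and the adjusted p from 0.0135 to 0.132, and over the 10 other alternatives the adjusted p ran from 0.00863 to 0.323. The Ccr9 change was 0.38 both with normexp background correction and on the 12 arrays with Y-linked signal, where it was not called.

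Ly6d encodes a small surface protein that marks lymphoid progenitors and part of the plasmacytoid lineage, and B cells also carry it. In spleen it was 2.10 in WT, 2.78 on the array labelled STAT4-/-, 1.39 in STAT6-/- and 3.58 in HDC-/- on the control diet and 2.72, -1.08, 1.73 and 1.12 on HFD. In marrow it was -0.14, 0.50, -1.38 and 2.18 on the control diet and -1.37, -1.20, -1.30 and -2.95 on HFD. The HDC-/- control-diet marrow array lay above all but 3 spleen arrays. Ly6d was 5.65-fold higher in spleen (2.50, SE 0.62, adjusted p 0.0135 by limma), higher in 8 of 8 pairs, the largest change among the probes read as the 10 genes. Leaving out the 2 arrays nearer the other tissue gave 3.44, the highest of the alternatives, which reached down to 2.30.

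Tcf4 encodes the E protein E2-2, the main transcription factor of the plasmacytoid fate. In spleen its level was 2.06 in WT, 2.83 on the array labelled STAT4-/-, 1.67 in STAT6-/- and 2.08 in HDC-/- on the control diet and 2.44, 0.23, 1.68 and 1.78 on HFD. In marrow it was -0.25, 0.82, 0.11 and 1.60 on the control diet and -0.022, 0.45, -0.38 and 0.60 on HFD. Apart from the 2 arrays named above, the lowest spleen value (1.67) was above the highest marrow value (0.82). Tcf4 was 2.79-fold higher in spleen (1.48, SE 0.31, adjusted p 0.00696 by limma), higher in 7 of 8 pairs, and without the 2 arrays the change was 1.91. Its second probe, well above background on 14 arrays, gave 1.66 with an adjusted p of 0.00624 in the per-probe limma fit and the same direction in 8 of 8 pairs.

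Spib encodes the Ets-family factor Spi-B, which acts in plasmacytoid dendritic cells and in B cells. In spleen it was 2.54 in WT, 2.55 on the array labelled STAT4-/-, 2.07 in STAT6-/- and 3.71 in HDC-/- on the control diet and 2.96, -0.79, 2.50 and 1.59 on HFD. In marrow it was 1.01, 2.29, -0.24 and 3.42 on the control diet and -0.37, -1.05, -0.25 and -2.63 on HFD, the widest spread of the 10 genes in marrow. Spib was 3.65-fold higher in spleen (1.87, SE 0.64, adjusted p 0.0482 by limma), higher in 8 of 8 pairs, and without the 2 arrays nearer the other tissue the change was 2.79. The call was lost when any of 11 of the 16 arrays was left out, with changes of 1.31 to 2.43 and adjusted p of 0.00765 to 0.133 over the 16 fits, and over the 10 other alternatives the adjusted p ran from 0.00303 to 0.0502. The 5 arrays whose removal kept the call were the spleen arrays of WT and STAT6-/- on control diet and labelled STAT4-/- on HFD, and the marrow arrays of STAT6-/- on HFD and HDC-/- on control diet.

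Klk1 encodes a tissue kallikrein, a serine protease expressed in mouse plasmacytoid dendritic cells. In spleen it was -0.010 in WT, -0.19 on the array labelled STAT4-/-, -0.81 in STAT6-/- and 0.32 in HDC-/- on the control diet and 0.37, -3.08, -0.29 and -0.80 on HFD. In marrow it was -1.73, -1.52, -2.66 and -0.41 on the control diet and -2.57, -2.36, -3.03 and -3.44 on HFD. As for Siglech, the HFD array labelled STAT4-/- was the lowest in spleen and the HDC-/- control-diet array the highest in marrow. Klk1 was 3.15-fold higher in spleen (1.65, SE 0.41, adjusted p 0.0137 by limma), higher in 7 of 8 pairs, and without the 2 arrays nearer the other tissue the change was 2.30. Mouse Klk1 has many near-identical Klk1b neighbours, so the signal of its probe may include them.

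The other 3 genes did not pass as read. Runx2 encodes a Runt-domain factor that plasmacytoid dendritic cells use in leaving the marrow. Its spleen level ran from -5.01 to -3.48 (median -3.85) and its marrow level from -5.62 to -2.90 (median -3.79), with a change of -0.14 (SE 0.26, adjusted p 0.707 by limma), or -0.33 without the 2 arrays. Cox6a2 encodes a tissue-restricted subunit of cytochrome c oxidase. It ran from -2.79 to -0.22 (median -0.88) in spleen and from -3.30 to -0.0021 (median -1.83) in marrow, with a change of 0.51 (SE 0.40, adjusted p 0.358 by limma). Without the 2 arrays nearer the other tissue its change was 1.13 with an adjusted p of 0.0123 by limma (0.0123 to 0.449 over the 10 alternatives).

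Pacsin1 encodes an adaptor of endocytosis and of the actin cytoskeleton, used by plasmacytoid dendritic cells in interferon release. By the probe read as the gene it ran from 2.25 to 3.59 in spleen and from 2.21 to 4.13 in marrow, with a change of -0.27 (SE 0.28, adjusted p 0.486 by limma) that turned to 0.017 under quantile normalization and was -0.46 without the 2 arrays nearer the other tissue. The second Pacsin1 probe, designed on another transcript record of the gene, was well above background on all 16 arrays and gave the opposite picture: -4.69 to -0.41 in spleen and -5.93 to -2.70 in marrow. Its change was 2.77 (SE 0.49, adjusted p 0.00342 in the per-probe limma fit), higher in spleen in 7 of 8 pairs. The tissue difference of Pacsin1 is thus uncertain by probe, and levels of the 2 probes cannot be set against each other. The second Runx2 probe, above background on 10 arrays, gave 0.60 (SE 0.23, adjusted p 0.0685).

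**Figure D2:**
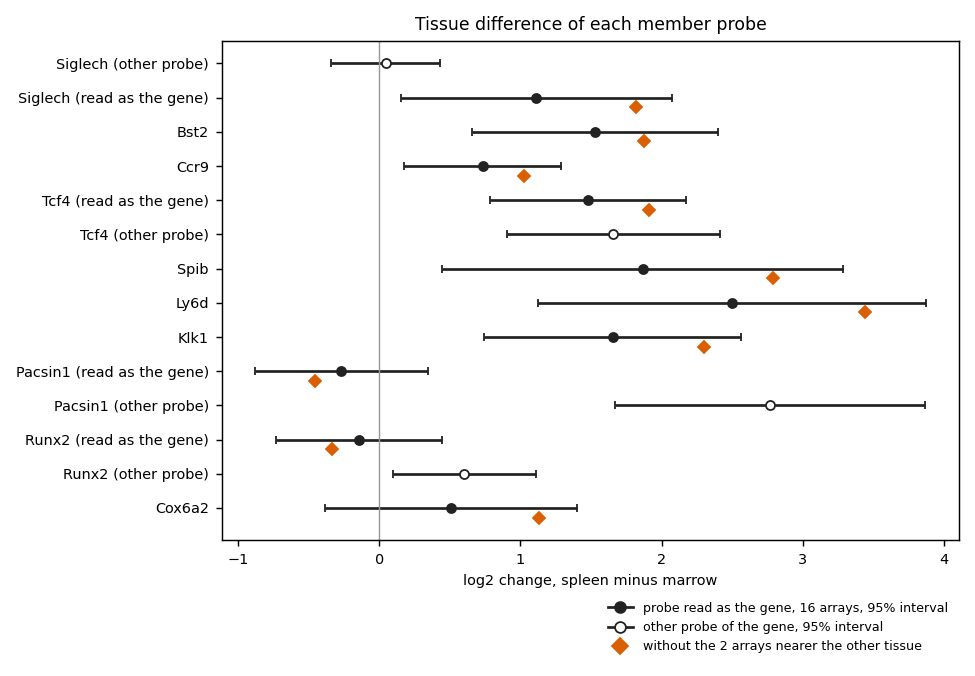
Change in log2 level, spleen minus marrow, for each of the 14 probes, with the 95% interval from limma, in which every probe was its own feature. Filled circles are the probes read as the gene, open circles the other probes of Siglech, Tcf4, Pacsin1 and Runx2, and diamonds the change without the 2 arrays nearer the other tissue. The 2 Pacsin1 probes differ most, at -0.27 and 2.77.

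**Figure D3:**
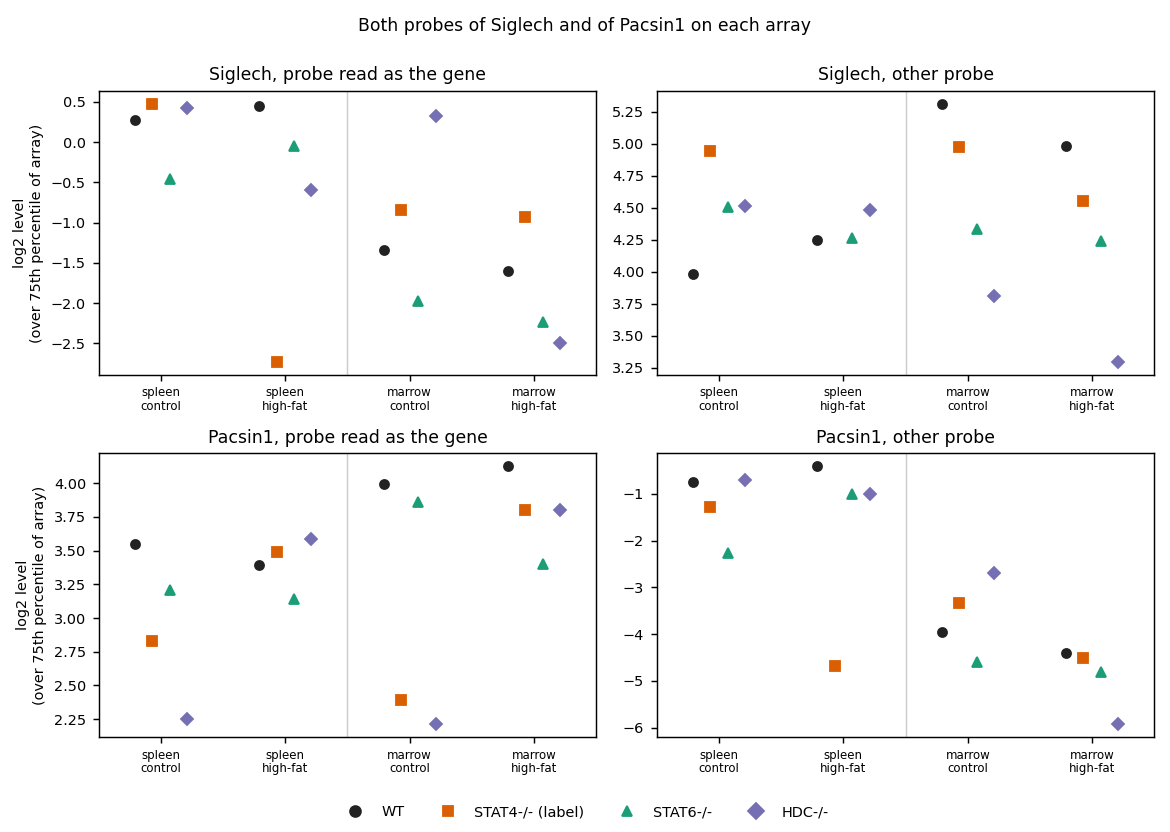
Log2 level of both probes of Siglech and of Pacsin1 on each array, by tissue and diet, with a symbol for each genotype. The probe of Siglech read as the gene and the other probe of Pacsin1 lie lower on most marrow arrays, and the other probe of Siglech has no point for the spleen HFD array labelled STAT4-/-, where its spot was flagged.

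How did other genes of the plasmacytoid program compare between tissues? The counts below stand against 15.1% of all features called higher and 16.7% called lower, and small lists near these shares show nothing particular to them. Of 8 transcription factors and their antagonists, 5 were higher in spleen and 1 was lower, with a median change of 1.38. Cbfa2t3, an E2-2 cofactor, was higher by 2.05, Bcl11a, a factor needed for the lineage, by 1.94 and Flt3, the receptor for the growth factor of dendritic cell development, by 1.86. The other called genes were Irf8, higher by 1.76, Id3, of the opposing Id family, higher by 0.99, and Ikzf1, lower at -0.87. The 5 higher genes thus include an antagonist and a receptor. Of 8 genes of endosomal nucleic acid sensing, 3 were higher and 1 lower, with a median of 0.20. Pld4, a nuclease of the endolysosome, was higher by 1.24 and Slc15a4, a transporter of that compartment, by 0.61, and the DNA sensor Tlr9 was lower, at -0.94. Of 11 other genes enriched in plasmacytoid cells, 4 were higher and 2 lower, with a median of 0.22; Lag3 was higher by 2.82, Cd7 by 2.51, and Dntt was lower, at -2.33. Of 6 interferon alpha and beta genes, 1 was higher (Ifna4, by 1.32, well above background on 4 of 8 marrow arrays) with a median of 0.024. Counts in these lists are limma calls with the same adjustment. Without the 2 arrays nearer the other tissue, 5 transcription factors and antagonists were higher and 1 lower, 1 sensing gene was higher and 1 lower, 5 other enriched genes were higher and 3 lower, and 1 interferon gene was higher. In that fit 16.6% of all features were called higher, and the share called lower is not given.

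Markers of other cell types moved with the tissue as well. All 8 B cell markers were higher in spleen, with a median of 3.51 (Cr2 by 5.15, Ms4a1 by 4.86 and Cd79a by 4.06). Plasma cell markers were higher for 5 of 6 (Mzb1 by 3.62, Irf4 by 2.81 and Sdc1 by 2.38). Early B cell markers were lower for 4 of 6 and higher for 1, with Vpreb1 at -3.43. Vpreb2 (-3.99) was well above background on 2 of 8 spleen arrays and Rag1 (-3.39) on 4 of 8, so the size of their differences rests partly on signal near background. T cell markers were higher for 5 of 6 and lower for 1 (Cd5 by 4.41, Tcf7 by 4.03 and Cd8a by 3.29). Conventional dendritic cell markers were higher for 6 of 6 (Batf3 by 3.23 and Clec9a by 3.04), with Xcr1 at least 10.6-fold higher since no marrow array had it well above background. Neutrophil and monocyte markers were lower for 2 of 6 (Mmp9 at -1.84 and Itgam at -1.29), and 0 of 7 interferon-stimulated genes passed by limma (median 0.58). The mean level of the B cell markers ran from -0.96 to 2.57 in spleen and from -3.08 to 0.15 in marrow. When the 2 arrays nearer the other tissue were left out, 8 of 8 B cell, 5 of 6 plasma cell, 5 of 6 T cell and 5 of 6 conventional dendritic cell markers were higher, 5 of 6 early B cell and 2 of 6 neutrophil and monocyte markers were lower, and 1 of 7 interferon-stimulated genes was higher. That fit called 16.6% of all features higher, and its share called lower is not given here. The part of other cell types in the tissue result was not tested.

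**Figure D4:**
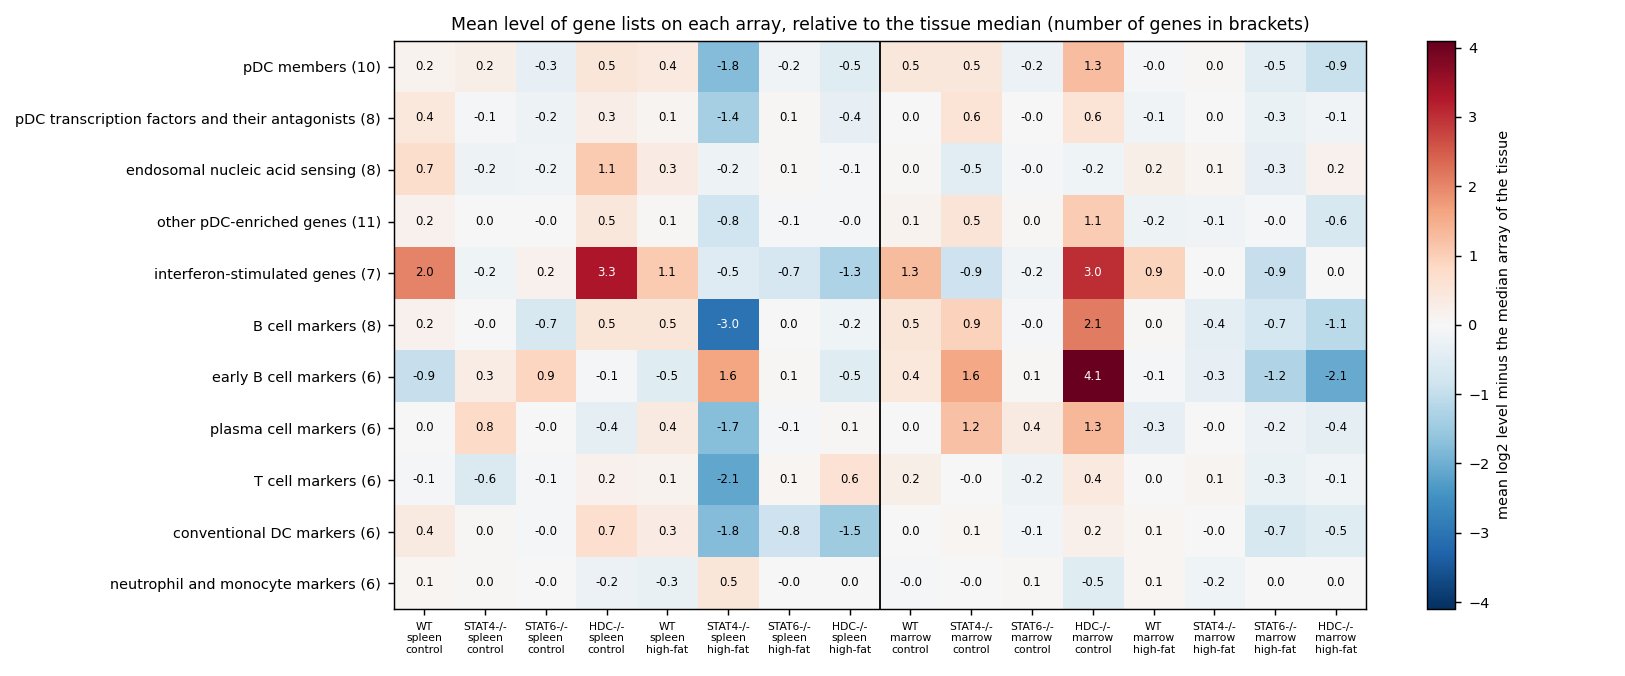
Mean log2 level of 11 gene lists on each array minus the median array of the same tissue (colour, with the value printed and the number of genes in brackets). The spleen HFD array labelled STAT4-/- was low for the plasmacytoid genes (-1.77), B cell markers (-3.03) and T cell markers (-2.12), and the HDC-/- marrow control-diet array was high for the plasmacytoid genes (1.27), early B cell markers (4.07) and interferon-stimulated genes (3.04).

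How alike were the genes within a tissue? Likeness was measured to the probe read as Siglech, whose tissue difference its second probe did not share. After subtracting the mean of each tissue, Klk1 had the highest correlation with Siglech among 10956 named genes with enough signal and spread, at 0.97 over 16 arrays. Ly6d was at 0.93 (rank 67), Cox6a2 at 0.92 (rank 100), Spib at 0.86 (rank 437) and Tcf4 at 0.85 (rank 483). Ccr9 and Bst2 were at 0.75 each, with ranks of 1082 and 1084, so many other genes were as close to Siglech. Runx2 and Pacsin1, by the probes read as the genes, ran the other way, at -0.40 and -0.55. The 5 genes outside the set most like Siglech were Klk1b3 (0.97), Ccdc112 (0.97), Lysmd2 (0.96), Klk1b24 (0.96) and Pcnx4 (0.96), of which Klk1b3 and Klk1b24 are close relatives of Klk1. These values describe 16 arrays that share slides and scaling, and the 2 arrays nearer the other tissue lie at the ends: on the array labelled STAT4-/- Klk1b3 read -3.40 against a spleen median of -0.38, and on the HDC-/- array -0.74 against a marrow median of -2.75.

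Did the high-fat diet change these genes? No member passed in either tissue or in the difference between tissues, and neither did any of the 28485 features (0% called in each comparison). At an unadjusted p under 0.05 the limma counts were 1 of 10 genes and 1263 features in spleen, 3 of 10 and 1731 in marrow, and 0 of 10 and 317 for the difference between tissues. The median change over the 10 genes was -0.70 in spleen and -0.86 in marrow, against 0.14 and 0.11 over all features. The member nearest the threshold was Spib in marrow, at -2.69 (SE 0.90, adjusted p 0.696 by limma), lower in 4 of 4 genotypes. The 4 HFD marrow arrays lay below the 4 control-diet arrays for Spib, as for 1.1% of features, but the genotype differences ran from -6.05 in HDC-/- to -0.012 in STAT6-/-. Without either HDC-/- marrow array the Spib change was -1.58. In marrow Ly6d stood at -1.99 (SE 0.87) and Cox6a2 at -1.34 (SE 0.57), both with an adjusted p of 0.696 by limma and lower in 3 of 4 genotypes. Without either HDC-/- marrow array they stood at -0.95 and -0.69. In spleen Bst2 stood at -1.24 (SE 0.55, adjusted p 0.779 by limma), with its lowest difference, -3.05, in HDC-/-.

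In spleen the sign differed between genotypes, untested: there 8 of 10 genes were higher on HFD in WT (median 0.38) and 8 of 10 in STAT6-/- (0.27), while 8 of 10 were lower on the arrays labelled STAT4-/- (-2.48) and 8 of 10 in HDC-/- (-0.99). The medians over all features in these pairs were 0.17, -0.11, 0.39 and 0.087, in the order WT, STAT6-/-, labelled STAT4-/- and HDC-/-. In the same order, 36.1%, 62.3%, 34.0% and 44.9% of all features were lower on HFD. In marrow the medians were below 0 in all 4 genotypes: 8 of 10 were lower in WT (-0.33), 7 of 10 on the arrays labelled STAT4-/- (-0.22), 8 of 10 in STAT6-/- (-0.23) and 8 of 10 in HDC-/- (-2.78). The medians over all features there were -0.024, 0.24, -0.016 and 0.24, in that order, and 52.2%, 38.2%, 51.1% and 41.5% of all features were lower. These are differences of 1 array against 1 array with no test. The largest pairs each hold an array that stands nearer the other tissue or that has low Y-linked signal. In both tissues the control-diet arrays labelled STAT4-/- and HDC-/- had low Y-linked signal and their HFD partners did not. In those pairs diet and this difference cannot be told apart, and they also enter the changes over all 4 genotypes given above. In the spleen pair labelled STAT4-/- the mean of the B cell markers differed by -3.01 and that of the plasma cell markers by -2.52, and in the HDC-/- marrow pair the early B cell markers differed by -6.14 and the interferon-stimulated genes by -3.01. In the HDC-/- spleen pair the interferon-stimulated genes differed by -4.58 and the conventional dendritic cell markers by -2.16. Their part in the diet differences was not tested.

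**Figure D5:**
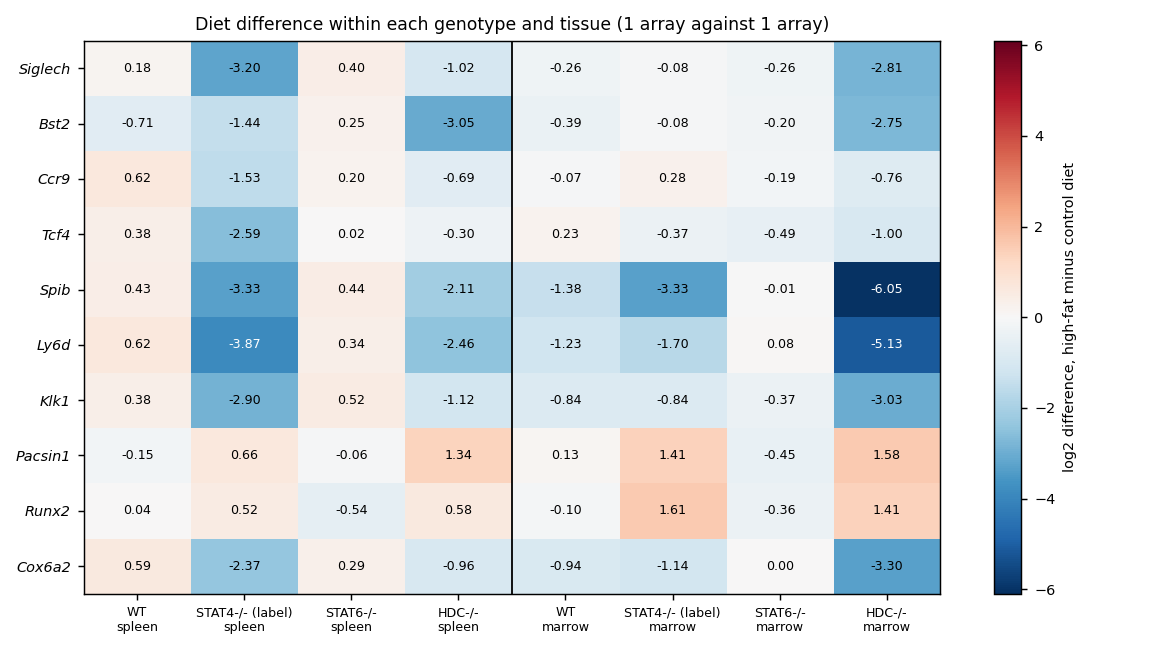
Difference in log2 level, HFD minus control diet, of the 10 genes within each genotype and tissue, 1 array against 1 array (colour, with the value printed). Blue marks lower on HFD; the spleen pair labelled STAT4-/- and the HDC-/- marrow pair hold the largest differences, down to -6.05 for Spib, and the WT and STAT6-/- spleen pairs lie between -0.71 and 0.62.

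Did the genotypes differ from WT? The arrays labelled STAT4-/-, STAT6-/- and HDC-/- were each set against the same 4 WT arrays, so the 3 comparisons share them. No member passed in any of the 3 limma comparisons, where 0.0176% of features were called for the label STAT4-/-, 0.0316% for STAT6-/- and 0.151% for HDC-/-. At an unadjusted p under 0.05 there were 0, 0 and 1 members and 2800, 1950 and 3126 features. On the arrays labelled STAT4-/- the change in Bst2 was the largest, at -0.89 (SE 0.55, adjusted p 0.602), lower in 4 of 4 pairs. In STAT6-/- all 10 changes were negative, from -0.71 to -0.29 (median -0.56 against -0.014 over all features), and no adjusted p was under 0.906 by limma. Also negative were 8 of 8 B cell markers (median -0.48), 6 of 6 conventional dendritic cell markers (-0.44) and 7 of 7 interferon-stimulated genes (-1.59). Negative too were 7 of 8 transcription factors and antagonists, 7 of 8 sensing genes and 6 of 11 other enriched genes. The counts were 4 of 6 for interferon alpha and beta genes, 4 of 6 for plasma cell markers and 3 of 6 for T cell markers. By contrast, 5 of 6 neutrophil and monocyte markers and 4 of 6 early B cell markers were positive. Over all features 48.6% of changes were positive. All STAT6-/- and HDC-/- arrays lie on other slides than the WT arrays, so for both genotype and slide cannot be told apart. The intervals are wide: that of Siglech in STAT6-/- ran from -1.99 to 0.73 (95%).

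Runx2 was the member nearest the threshold in HDC-/-. It read -3.65 and -3.61 in WT spleen on control diet and HFD and -3.03 and -3.12 in WT marrow, against -5.01, -4.44, -5.62 and -4.21 in HDC-/-. The 4 HDC-/- arrays lay below all 4 WT arrays, as for 1.97% of features. The change was -1.47 (SE 0.37, unadjusted p 0.00273, adjusted p 0.2 by limma), lower in 4 of 4 pairs. Slide differed with genotype in each of these pairs. Over 16 fits that left out 1 array the adjusted p ran from 0.0838 to 0.747. The control-diet HDC-/- arrays, which had the lowest Runx2 value of each tissue, also carried low Y-linked signal. On the 12 arrays with Y-linked signal the change was -0.85 with an adjusted p of 0.375 by limma (0.147 to 0.852 over the 10 alternatives). The second Runx2 probe gave -0.52 with an adjusted p of 0.602. Pacsin1 stood at -0.80 (SE 0.39, adjusted p 0.491), and Bst2 stood at 0.80 (SE 0.55, adjusted p 0.65). Bst2 was at 0.16 without the HDC-/- control-diet marrow array and turned to -0.52 on the 12 arrays with Y-linked signal.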

How the data were processed

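RNA of CD11b+ cells, pooled from 5 mice for each array, was measured on 16 one-colour Cy3 arrays. The labels do not say whether the spleen and marrow pools came from the same mice. The intensity values deposited by the authors come from Agilent Feature Extraction 11.0.1.1, per the file headers, and were background-subtracted. Probes were named through RefSeq accessions, which gave a symbol to 69.1% of 39429. Probes flagged on any array (305) were left out. Signals were scaled on the log2 scale to the 75th percentile of each array. A gene's value is that of its brightest probe, provided 2 or more arrays had it well above background. limma 3.58.1 in R 4.3.3 was fitted with 6 residual degrees of freedom, two-sided, with Benjamini-Hochberg adjustment over 28485 features, after a test on simulated data.

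All 10 members were described in each comparison, and up to 3 called genes of largest change from each other list. For the list of transcription factors and antagonists, all genes called between tissues were named. The members and lists were chosen with earlier results of these data known. Alternatives covered scaling, normexp background correction (on spot medians), the filter, probe choice and arrays left out. The fits on the 12 arrays with Y-linked signal, on second probes, with each probe as a feature and with shared genotype terms were chosen after seeing the data. Promoter sequences are RefSeq's (GRCm38.p6).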

Additional observations from a re-analysis of the deposited data

Results flagged for a closer look

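Of 20 groups of 8 arrays (10 genes in 2 tissues), 5 had an array far from the others. Chance alone flags about 1 group in 20 when the 8 arrays are alike. Here they differ in genotype and diet, so the 5 cannot be set against that rate. The genes also vary together, so the 5 are not independent. The spleen HFD array labelled STAT4-/- was the low one in 4 of them: Siglech at -2.73 (next lowest spleen array -0.59), Tcf4 at 0.23 (next 1.67), Spib at -0.79 (next 1.59) and Klk1 at -3.08 (next -0.81). In marrow, Bst2 was far above the others on the HDC-/- control-diet array, at 1.75 (next highest -0.43). Both arrays are those that stood nearer the other tissue. On the first the mean of the B cell markers differed from the spleen median by -3.03, and on the second that of the interferon-stimulated genes stood 3.04 above the marrow median; their part in these values was not tested.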

How the results depend on the processing

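The count of members called between tissues was 6 as reported, 4 to 8 over the alternatives and 4 to 7 when 1 array was left out. Quantile normalization gave 4, no filter 5, the mean of a gene's probes 7, the WT and STAT6-/- arrays alone 7, the 12 arrays with Y-linked signal 5 and leaving out the 2 arrays nearer the other tissue 8. With 1 array left out, the number of all 28485 features called between tissues in either direction ran from 5677 to 10513. The count was 4 members at the lowest of these totals and 7 at the highest, so it should be read against the total. For the other alternatives the share is not given, except 16.6% called higher without the 2 arrays nearer the other tissue. Counts given without a share do not show how stable the members are compared with other features. Diet and genotype calls stayed at 0 members in every alternative run. No paired analysis was run: each group has 1 array, so there are no replicate numbers to use as a block. Spleen and marrow arrays of the same genotype and diet could have been paired, but the fit treated them as independent. The labels used here do not say whether these arrays share mice, and the p-values take no account of such sharing. The fit itself compares the diets within each genotype and tissue. A slide block could not be fitted with the genotype-by-tissue means; with genotype terms shared by both tissues it gave 6 members called. Precision is limited by 1 pool per group, and array signal gives no counting error.

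Signs turned for many uncalled changes; the causes were not tested. Between tissues, Pacsin1 turned to 0.017 under quantile normalization, 1.25 with the mean of its probes and 2.77 with its second probe, and Runx2 to 0.23 and 0.60 with the last 2. On the WT and STAT6-/- arrays alone, the spleen diet change was 0.29 for Siglech, 0.41 for Ccr9, 0.20 for Tcf4, 0.43 for Spib, 0.48 for Ly6d, 0.45 for Klk1, 0.44 for Cox6a2, -0.11 for Pacsin1 and -0.25 for Runx2, the marrow one -0.16 for Pacsin1 and -0.23 for Runx2, and their difference 0.55 for Siglech, 0.070 for Bst2, 0.54 for Ccr9, 0.33 for Tcf4 and 0.053 for Pacsin1. Without the 2 arrays, the spleen diet change was 0.043 for Ccr9 and 0.032 for Tcf4, the marrow one 0.0058 for Ccr9, and the difference 0.055 for Siglech, 0.037 for Ccr9, 0.24 for Tcf4 and 0.010 for Pacsin1; against WT, the label STAT4-/- gave 0.31 for Siglech, 0.33 for Ccr9, 0.27 for Ly6d and 0.14 for Cox6a2, and HDC-/- gave -0.89 for Ly6d. With the mean of probes and the second probe, Pacsin1 gave -0.036 and -0.52 for diet in spleen, -0.30 and -1.27 in marrow and 0.26 and 0.75 for the difference, and Runx2 0.16 and 0.69 for the label STAT4-/-. Second probes gave a diet difference of 0.098 for Tcf4 and 0.41 for Runx2. On the 12 arrays with Y-linked signal, the label STAT4-/- gave -0.73 for Tcf4 and 0.28 for Runx2, and HDC-/- -0.52 for Bst2 and -1.71 for Ly6d. Under quantile normalization and normexp, Tcf4 gave -0.014 and -0.015 for the label STAT4-/- and Spib 0.11 and 0.014 for HDC-/-, where Siglech gave 0.038 under normexp.

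With 1 array left out, these changes took both signs. Between tissues, Runx2 ran from -0.31 to 0.023. For diet in spleen, Ccr9 ran from -0.67 to 0.043 and Tcf4 from -0.96 to 0.032, and in marrow Ccr9 from -0.34 to 0.0058. For the diet difference, Siglech ran from -0.71 to 0.71, Bst2 from -1.01 to 0.22, Ccr9 from -0.49 to 0.23, Tcf4 from -0.55 to 0.44, Ly6d from -0.39 to 1.49, Klk1 from -0.091 to 1.20 and Pacsin1 from -0.60 to 0.082. For the label STAT4-/-, Siglech ran from -1.22 to 0.31, Ccr9 from -0.46 to 0.33, Tcf4 from -0.63 to 0.68, Ly6d from -1.42 to 0.27 and Cox6a2 from -1.03 to 0.14. For STAT6-/-, Tcf4 ran from -0.62 to 0.044, Spib from -1.41 to 0.38 and Pacsin1 from -0.74 to 0.012. For HDC-/-, Siglech ran from -0.69 to 0.62, Ccr9 from -0.42 to 0.23, Spib from -1.13 to 1.11, Ly6d from -0.89 to 1.20, Klk1 from -0.68 to 0.49 and Cox6a2 from -1.03 to 0.28.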
